A study of Gallus gallus with 24 samples.

Results

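The lower follicle sheath and the upper follicle sheath of the adult chicken sickle feather were compared by RNA sequencing of polyA RNA. The comparison covered 8 libraries of the 24 in the study, 4 of the lower follicle sheath and 4 of the upper follicle sheath. These libraries were picked by the tissue label alone, while the comparison itself was chosen with earlier results of these data known. Each of 4 adult chickens gave a library of both sheaths and of 4 further tissues, which were the dermal papilla, the feather pulp, the papilla ectoderm and the collar epithelium. The birds were 2 males, numbered 53 and 68, and 2 females, numbered 52 and 120, and the bird was a block in the fits reported unless stated otherwise. The labels give no treatment, strain or exact age, and do not say which cell layers a sheath sample held or where along the follicle it was cut. The deposited files list genes by Ensembl identifier without a name, so genes are described by identifier and by their levels across tissues, and no named marker of a sheath layer was looked up.

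Sickle feathers are the long curved tail feathers that differ between cocks and hens. A feather grows from a tubular follicle in the skin, whose wall, the follicle sheath, surrounds the growing feather from its base to the skin surface. At the base sits the dermal papilla, a mesenchymal cluster that induces and renews the feather, capped by the papilla ectoderm. Above it the collar epithelium proliferates and is shaped into barbs around the vascular pulp. By name, the lower sheath lies nearer to the base of the feather and the upper sheath nearer to its forming shaft.

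The lower sheath libraries held 23211981 to 27895598 gene counts and the upper sheath libraries 20864990 to 27247160, so depth was alike in the 2 tissues. Of 17108 listed genes, 14531 to 14884 had at least 1 count in a lower sheath library and 14565 to 14887 in an upper sheath library. The lower sheath library of female 52 stood apart from its group. Its mean rank correlation with the other 3 lower sheath libraries, across genes, was 0.966, while each of those 3 had a mean of 0.973 to 0.974. It lay nearest to the dermal papilla library of the same bird, at 0.972, and it held RNA of collar-restricted genes that the other lower sheath libraries nearly lacked, as given with those genes. The main counts of called genes are also given without female 52, as are the other values that were computed without it.

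The sheaths differed in 3739 of 13340 genes tested, or 28%, at an adjusted p below 0.05 (edgeR quasi-likelihood test with the bird as block, Benjamini-Hochberg adjustment over all genes tested). The lower sheath was higher in 1916 genes, 14.4% of those tested, and the upper sheath in 1823 genes, 13.7%. The median fold change over all genes was -0.00034 on the log2 scale, with a median standard error of 0.14. Of the genes higher in the lower sheath, 1910 were higher in 4 of 4 birds, and of those higher in the upper sheath, 1818 were higher there in 4 of 4. Over all genes tested, 27.1% were higher in the lower sheath in every bird and 24.9% were higher in the upper sheath in every bird. In 1155 of the genes called higher in the lower sheath and 1240 of those called higher in the upper, all 4 libraries of one sheath lay above all 4 of the other. Over all genes tested, 1454, or 10.9%, had all 4 lower sheaths above all 4 upper ones and 1489, or 11.2%, the reverse, and with CPM scaled over all 24 libraries the 2 counts were 1797 and 1201. Among the 9601 genes that did not pass the test, 7108 had a 95% interval that stayed within 2-fold in either direction, and for the other 2493 a larger difference was not bounded at this number of birds.

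Many of the called differences were small. The lower sheath was higher by less than 2-fold in 1155 genes, by 2- to 4-fold in 510, by 4- to 16-fold in 144 and by more than 16-fold in 107. The upper sheath was higher by less than 2-fold in 1003 genes, by 2- to 4-fold in 378, by 4- to 16-fold in 284 and by more than 16-fold in 158. Of the genes called higher in the lower sheath, 261 averaged less than 1 CPM in the upper sheath, and of those called higher in the upper sheath, 173 averaged less than 1 CPM in the lower sheath. CPM, the count of a gene per 1000000 counts of its library, is not scaled to gene length, so levels are compared between libraries and not between genes.

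The number of genes called depended on which birds were in the fit. Without female 52 the test called 1195 genes higher in the lower sheath and 1626 in the upper. With male 53 left out it called 733 higher in the lower sheath and 773 in the upper, with male 68 left out 731 and 688, and with female 120 left out 1113 and 955. Without the bird as a block, 903 genes were called higher in the lower sheath and 943 in the upper, and 1821 of these 1846 were among the genes called with it.

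**Figure D1:**
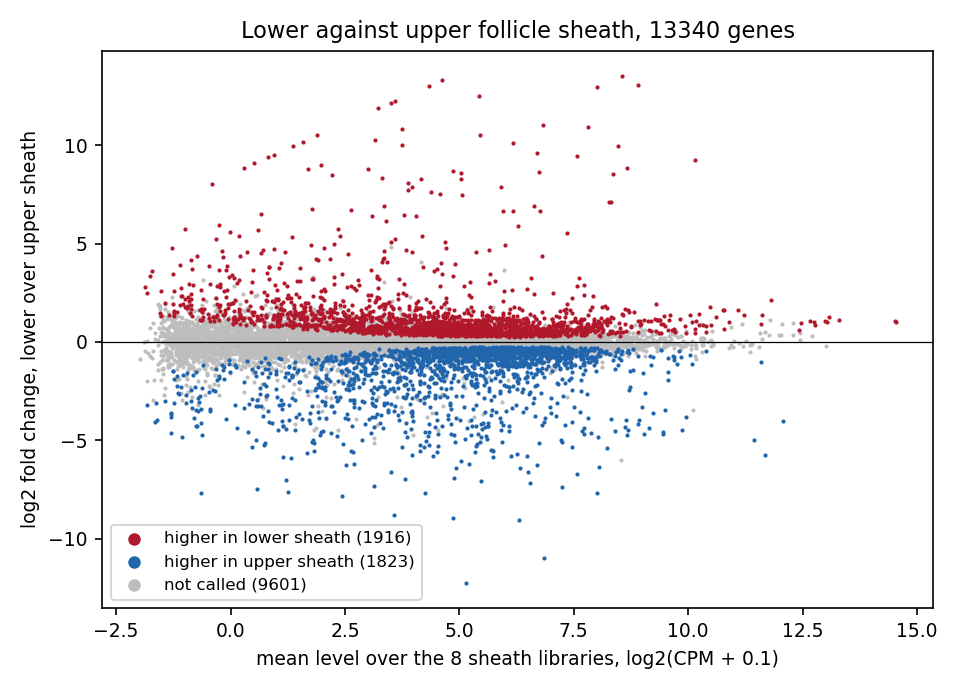
Fold change of the lower over the upper follicle sheath (log2, vertical axis) against the mean level over the 8 sheath libraries (log2 of CPM plus 0.1, horizontal axis), with 1 point per gene tested. Coloured points are the 1916 genes called higher in the lower sheath and the 1823 called higher in the upper sheath, and the fold changes reach 13.51 on the lower side.

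The share of counts taken by the genes called at least 2-fold apart was read in each library. These genes were chosen by their fold change in these same libraries. The direction of the shares is therefore set by the choice, and the values are given as a description. There were 761 such genes higher in the lower sheath and 820 higher in the upper. The 761 genes took 19.1% of the counts in the lower sheath of male 53, 17.3% in male 68, 14.4% in female 52 and 18.5% in female 120, against 7.71%, 6.13%, 6.76% and 8.4% in the upper sheaths of the same birds in the same order. The 820 genes took 1.77%, 1.75%, 3.59% and 1.60% of the counts in the lower sheaths of males 53 and 68 and females 52 and 120, against 11.5%, 10.7%, 10.7% and 8.92% in the upper sheaths. The lower sheath of female 52 was thus at the low end of its group for the first set and at the high end for the second. Without female 52, 623 genes were called at least 2-fold higher in the lower sheath and 966 in the upper. Without male 53 the 2 counts were 444 and 465, without male 68 they were 468 and 431, and without female 120 they were 645 and 534.

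The 10 highest genes by mean CPM held 12.2% to 17.1% of the counts in lower sheath libraries and 8.06% to 9.62% in upper sheath libraries, with the 10 taken in each library. Of the 10 highest by mean in the lower sheath, at 7722 to 31910 CPM, 9 were called higher in the lower sheath and 0 in the upper, against 14.4% and 13.7% of all genes tested. These 10 were chosen by their level in the lower sheath, so the direction of their calls is given as a description. Of the 10 highest in the upper sheath, at 5284 to 15820 CPM, 5 were called higher in the lower sheath and 2 in the upper, and 6 genes stood in both lists of 10.

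The 2 largest fold changes on each side, among genes called with at least 5 CPM and with no overlap between the sheaths, were close to an on and off difference. ENSGALG00000027177.1 had 699, 917, 231 and 1168 CPM in the lower sheaths of males 53 and 68 and females 52 and 120, against 0.0470, 0.0366, 0.0434 and 0.111 CPM in the upper sheaths. All 4 lower sheath libraries lay above all 4 upper ones, and female 52 was the lowest of the lower sheaths. The means were 754 ± 397 CPM in the lower sheath and 0.0595 ± 0.0347 CPM in the upper (SD, n = 4 birds each). The fitted fold change was 13.51 on the log2 scale (quasi-likelihood F test, adjusted p = 9.0e-05). The ratio of the summed counts, 74687 in the lower sheath to 6 in the upper, was 12590, with an interval of 5782 to 34300 that covers counting error only. No library of the other 4 tissues exceeded 0.559 CPM, so among the 6 tissues its RNA was found at a high level in the lower sheath alone.

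ENSGALG00000014848.4 had 25.7, 37.9, 15.2 and 118 CPM in the lower sheaths of males 53 and 68 and females 52 and 120, and no count in any of the 4 upper sheaths. The highest lower sheath, that of female 120, was several times above the others. The 5083 counts of the lower sheath against 0 in the upper make it at least 1713-fold higher in the lower sheath, with the upper sheath set at 3 counts over the group (adjusted p = 0.0040). The collar epithelium held a trace of it, at 0.218 to 0.814 CPM.

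ENSGALG00000016682.4 had 0, 0, 0 and 0.0359 CPM in the lower sheaths of males 53 and 68 and females 52 and 120, against 26.1, 64.5, 69.0 and 121 CPM in the upper sheaths. That is 1 count in the lower sheath and 7183 in the upper (adjusted p = 9.0e-05), a ratio of 7104 with a counting interval of 1275 to 280600. The collar epithelium had 0.545 to 3.30 CPM, above every library of dermal papilla, pulp and papilla ectoderm, where the highest was 0.255 CPM.

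ENSGALG00000006469.4 had 0.0445, 0, 0.163 and 0.215 CPM in the lower sheaths of males 53 and 68 and females 52 and 120, against 30.4, 218, 387 and 281 CPM in the upper sheaths. The means were 0.106 ± 0.10 CPM in the lower sheath and 229 ± 150 CPM in the upper (SD, n = 4 birds each), and male 53 was the lowest of the upper sheaths. The fitted fold change was -10.97 on the log2 scale (quasi-likelihood F test, adjusted p = 0.00042), from 11 counts in the lower sheath and 23109 in the upper. No library of the other 4 tissues exceeded 0.891 CPM. All 4 genes passed the test under each of the 12 alternatives tried. They were chosen for their fold changes in these same libraries, so this is given as a description.

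**Figure D2:**
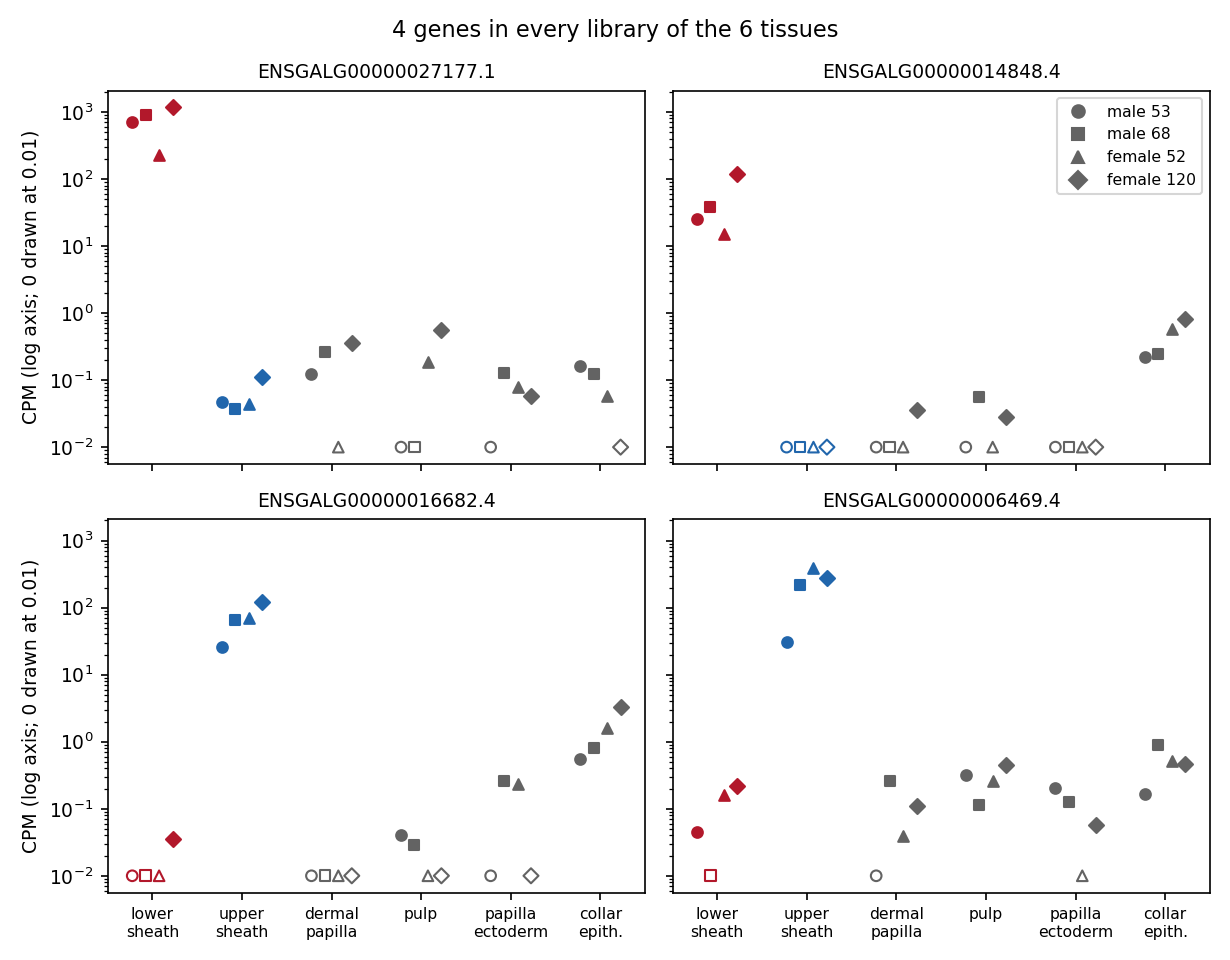
Level of the 4 genes with the largest fold changes in every library (CPM, log axis), with the lower sheath, the upper sheath and the other 4 tissues from left to right in each panel and 1 marker shape per bird. Open markers stand for libraries with 0 counts, drawn at 0.01, such as all 4 upper sheaths for ENSGALG00000014848.4, and no gene has overlapping sheaths.

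A wider set of genes was on in one sheath and off in the other. With at least 5 CPM in all 4 libraries of one sheath and at most 0.5 CPM in all 4 of the other, limits that were set after the values had been seen, 26 genes were on in the lower sheath alone and 8 in the upper sheath alone. The 26 lower sheath genes averaged 18.5 to 960 CPM in the lower sheath. All 26 were called, which the gap set by the limits makes likely. The other tissues were read by their means over 4 libraries, not library by library. By mean, 21 of the 26 were at or below 0.5 CPM in all 4 other tissues. Those that reached 5 CPM elsewhere were 2 in the dermal papilla and 1 in the collar epithelium. The 8 upper sheath genes averaged 8.68 to 229 CPM in the upper sheath, and 0 of the 8 had means at or below 0.5 CPM in all 4 other tissues. Among them, ENSGALG00000006469.4, at 229 CPM in the upper sheath, missed that limit only by a collar epithelium mean of 0.510 CPM. The share of all genes tested at or below 0.5 CPM in all 4 other tissues was not counted. Of these 8 genes, 4 reached 5 CPM in the collar epithelium, 2 in the papilla ectoderm, 1 in the pulp and 0 in the dermal papilla. Over all genes tested, the share that reached 5 CPM was 75.6% for dermal papilla, 76.8% for pulp, 75.3% for papilla ectoderm and 70.5% for collar epithelium.

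Most of the 26 genes were highest and lowest in the same birds. Their summed level was 2728, 3412, 1276 and 8585 CPM in the lower sheaths of males 53 and 68 and females 52 and 120, against 3.29, 2.89, 2.48 and 3.52 CPM in the upper sheaths. For 25 of the 26 the highest lower sheath was that of female 120, and for 22 the lowest was that of female 52. The 8 genes summed to 1.16, 0.707, 2.24 and 1.29 CPM in the lower sheaths of males 53 and 68 and females 52 and 120, against 186, 632, 828 and 752 CPM in the upper sheaths, and 7 of the 8 were lowest in the upper sheath of male 53. Which bird was highest or lowest was not counted over all genes tested, so these counts describe the 26 and 8 genes alone. Without female 52 the same limits gave 33 genes for the lower sheath and 38 for the upper. With 10 CPM for on and 0.25 CPM for off they gave 10 and 3.

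Each bird was also read against calls made without it. Male 68 and the 2 females gave 733 genes called higher in the lower sheath, and 714 of them, or 97.4%, were higher there in male 53 too. Their median difference in male 53 was 1.30 on the log2 scale, against 1.21 in the 3 birds that made the calls. In male 68 the share was 96.7% of 731 genes, in female 52 it was 97.8% of 1195 and in female 120 it was 96.1% of 1113. For genes called higher in the upper sheath, the share with the same direction was 96.9% of 773 genes in male 53, 97.4% of 688 in male 68, 89.8% of 1626 in female 52 and 96.7% of 955 in female 120. Over all genes tested, 47.6% to 52.3% had the given direction in a left-out bird.

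The median difference in each female was nearer to 0 than in the birds that had made the calls. In female 52 the genes higher in the upper sheath had a median of -0.64, against -1.22 in the other 3 birds, while the genes higher in the lower sheath had 0.94, against 1.05. In female 120 the genes higher in the lower sheath had a median of 0.65, against 1.14, and those higher in the upper sheath -1.0, against -1.14. In male 68 the 2 medians were 1.19, against 1.23, and -1.33, against -1.29, so the first was also slightly nearer to 0. In male 53 the genes higher in the upper sheath had -1.325, against -1.20. The bird left out was read as a difference in log2 CPM and the others by their fitted fold change, which are not the same measure. Why the medians differ between birds was not tested.

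**Figure D3:**
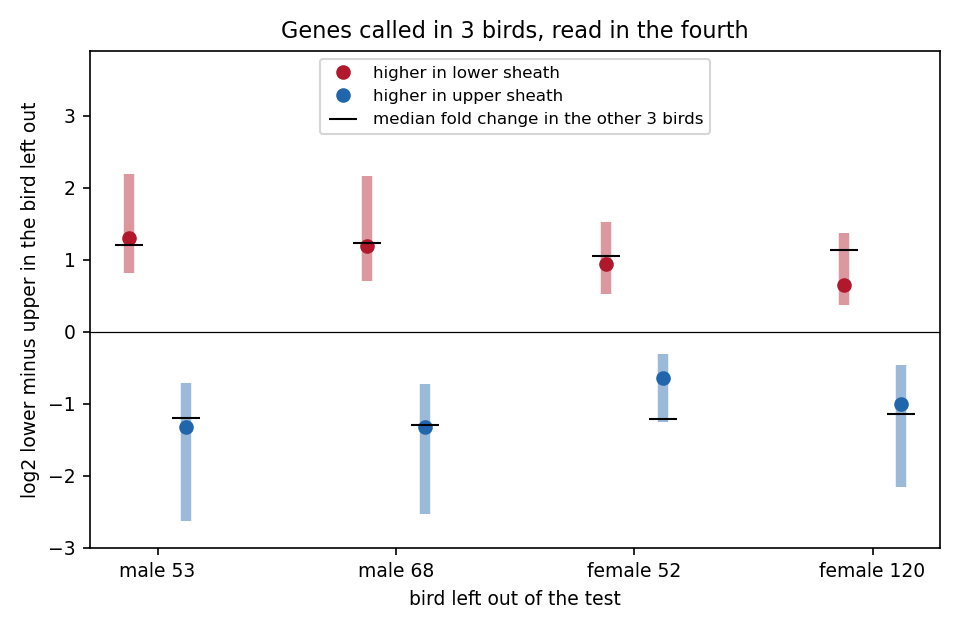
Difference of lower minus upper sheath (log2 CPM, vertical axis) in the bird left out of the test (horizontal axis), for genes called in the other 3 birds. Points are medians over genes, bars the middle 50% of genes and black lines the median fold change in the 3 birds that made the calls, and the point of female 52 for genes higher in the upper sheath, at -0.64, lies nearest to 0.

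The levels of the sheath genes in the other 4 tissues differed between the 2 directions. For the 761 genes at least 2-fold higher in the lower sheath, 58.6% lay above the midpoint of the 2 sheaths, on the log2 scale, in the dermal papilla, against 37.6% in the pulp, 30.0% for papilla ectoderm and 18.7% for collar epithelium. The dermal papilla had the highest level of these 4 tissues for 401 of the 761, or 52.7%, and the median gene reached 74.1% of its lower sheath level there, against 7.28% in the collar epithelium. For the 820 genes at least 2-fold higher in the upper sheath, 9.15% lay above the midpoint in the dermal papilla, against 19.3% in the pulp, 39.6% for papilla ectoderm and 68.4% for collar epithelium. The collar epithelium was highest of the 4 tissues for 552 of the 820, or 67.3%, and the median gene reached 89.7% of its upper sheath level there, against 20.3% in the dermal papilla.

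Over all genes tested, the share above the sheath midpoint was 48.7% for dermal papilla, 47.7% for pulp, 46.0% for papilla ectoderm and 49.3% for collar epithelium. The dermal papilla was highest of the 4 tissues for 25.6% of all genes tested, and the collar epithelium for 36.0%. The median of all genes reached 98.05% of its lower sheath level in the dermal papilla and 98.3% in the collar epithelium. Relative to the upper sheath level, these medians were 102% and 98.8%. With female 52 left out of the sheaths only, 51.2% of the lower sheath genes lay above the midpoint in the dermal papilla and 13.5% in the collar epithelium. In the same setting, 17.9% of the upper sheath genes lay above it in the dermal papilla and 75.5% in the collar epithelium. The other tissues kept all 4 birds, and the share over all genes was not computed in this setting. Against the 48.7% of all genes with female 52 included, the 51.2% in the dermal papilla is little higher.

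**Figure D4:**
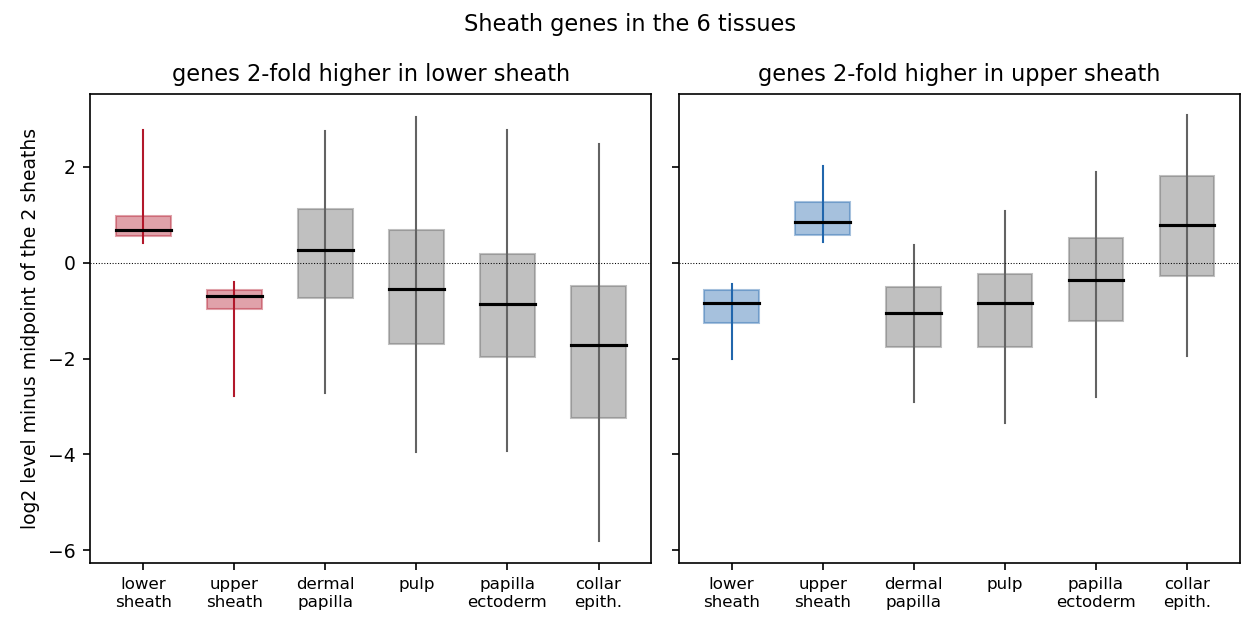
Level in each of the 6 tissues relative to the midpoint of the 2 sheaths (log2, vertical axis), for genes at least 2-fold higher in the lower sheath and genes at least 2-fold higher in the upper sheath. Boxes span the middle 50% of genes with the median as a line, thin lines run from the 5th to the 95th percentile, and 0 is the sheath midpoint, so the sheaths themselves are set apart by how the genes were chosen. The medians for lower sheath genes are 0.27 in the dermal papilla and -1.72 in the collar epithelium, and those for upper sheath genes are -1.05 and 0.79.

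A second view used tests within the other tissues, whose libraries took no part in the sheath test but came from the same birds. The dermal papilla was set against the pulp, and the papilla ectoderm against the collar epithelium, as a mesenchymal and an epithelial pair of a basal and a more distal tissue. Of the 682 lower sheath genes tested between dermal papilla and pulp, 323, or 47.4%, were called higher in the dermal papilla and 133, or 19.5%, in the pulp, while 21.6% and 24.1% of all 13445 genes were. Of the 733 upper sheath genes tested there, 67, or 9.14%, were higher in the dermal papilla and 188, or 25.6%, in the pulp, the second share near that of all genes. Of the 604 lower sheath genes tested in the epithelial pair, 275, or 45.5%, were called higher in the papilla ectoderm and 62, or 10.3%, in the collar epithelium, while 21.3% and 17.1% of all 13178 genes were. Of the 780 upper sheath genes tested there, 76, or 9.74%, were higher in the papilla ectoderm and 391, or 50.1%, in the collar epithelium. With the sheath genes called without female 52, 49.5% of the lower sheath genes were higher in the dermal papilla and 48.7% in the papilla ectoderm, and 25.4% of the upper sheath genes were higher in the pulp and 53.7% in the collar epithelium.

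The 2 pairs were then read together, with sheath genes called in all 4 birds only. Of 591 lower sheath genes tested in both, 154, or 26.1%, were higher in the basal tissue of both pairs and 9, or 1.52%, in the distal tissue of both. Of 718 upper sheath genes, 7, or 0.97%, were higher in the basal tissue of both pairs and 66, or 9.19%, in the distal tissue of both. Over all 12603 genes tested in both pairs, 6.64% were basal in both and 3.58% distal in both. In the single pairs, the upper sheath genes exceeded all genes on the distal side in the collar epithelium, at 50.1% against 17.1%. In the pulp they were near all genes, at 25.6% against 24.1%, so the joint count does not show a higher share in the pulp. On the dermal papilla side they were below all genes, at 9.14% against 21.6%. Their median fold change of dermal papilla over pulp was -0.35 on the log2 scale, against -0.04 for all genes.

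Genes restricted to 1 tissue among the non-sheath tissues were then read in the sheaths. They were chosen from the 16 non-sheath libraries, and no sheath library entered the choice. Each had at least 20 CPM in every library of 1 tissue and more than 10 times the level of the other 3. Whether the RNA of these genes in a sheath came from neighbouring tissue or from the sheath itself was not tested. The dermal papilla had 10 such genes, the pulp 5, the papilla ectoderm 1 and the collar epithelium 40. The median gene of the dermal papilla set stood at 159%, 42.3%, 80.9% and 75.4% of its dermal papilla level in the lower sheaths of males 53 and 68 and females 52 and 120, against 55.1%, 20.2%, 29.9% and 31.7% in the upper sheaths. Within each bird the lower sheath was above the upper, although the lower sheath of male 68 was below the upper sheath of male 53. Of the 10 genes, 8 were called higher in the lower sheath and 0 in the upper, against 14.4% and 13.7% of all genes tested, with a median fold change of 1.42 on the log2 scale. Without female 52 the calls were 7 and 1, against 9.03% and 12.3% of all genes tested.

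The collar-restricted genes set 1 library apart. The median gene stood at 0.0345%, 0.0293%, 12.4% and 0.0599% of its collar level in the lower sheaths of males 53 and 68 and females 52 and 120, against 1.86%, 3.17%, 3.32% and 2.37% in the upper sheaths. The lower sheath of female 52 was above all 4 upper sheaths and the other 3 lower sheaths were below all 4. The summed level of the 40 genes was 30.6, 27.9, 4767 and 43.2 CPM in the lower sheaths of males 53 and 68 and females 52 and 120, against 1452, 2073, 1785 and 1654 CPM in the upper sheaths. Of the 40 genes, 8, 7, 0 and 6 were at 0 counts in those lower sheaths, against 0, 1, 0 and 1 in the upper ones. Of 39 collar genes tested, 0 were called higher in the lower sheath and 11 in the upper. The shares of all genes tested were 14.4% and 13.7%, and the median fold change of the collar genes was -2.49. Without female 52, 0 of 36 were called higher in the lower sheath and 24 in the upper, with a median of -5.01, while 9.03% and 12.3% of all genes were called in those 3 birds. Female 52 was set apart partly by its level of these same genes, so the change without it is given as a description.

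The pulp and papilla ectoderm sets were low in both sheaths. The pulp set stood at 1.88% to 3.09% of its pulp level in the lower sheaths and at 1.75% to 2.74% in the upper sheaths, and 0 of its 5 genes were called in either direction, against 14.4% and 13.7% of all genes. The single papilla ectoderm gene stood at 0.195% to 2.31% in the lower sheaths and at 1.08% to 11.1% in the upper sheaths and was not called. In whole-tissue RNA of this kind, more cells of a type and more RNA per cell cannot be told apart, and the part of adjoining collar or dermal papilla tissue in the sheath differences was not tested.

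**Figure D5:**
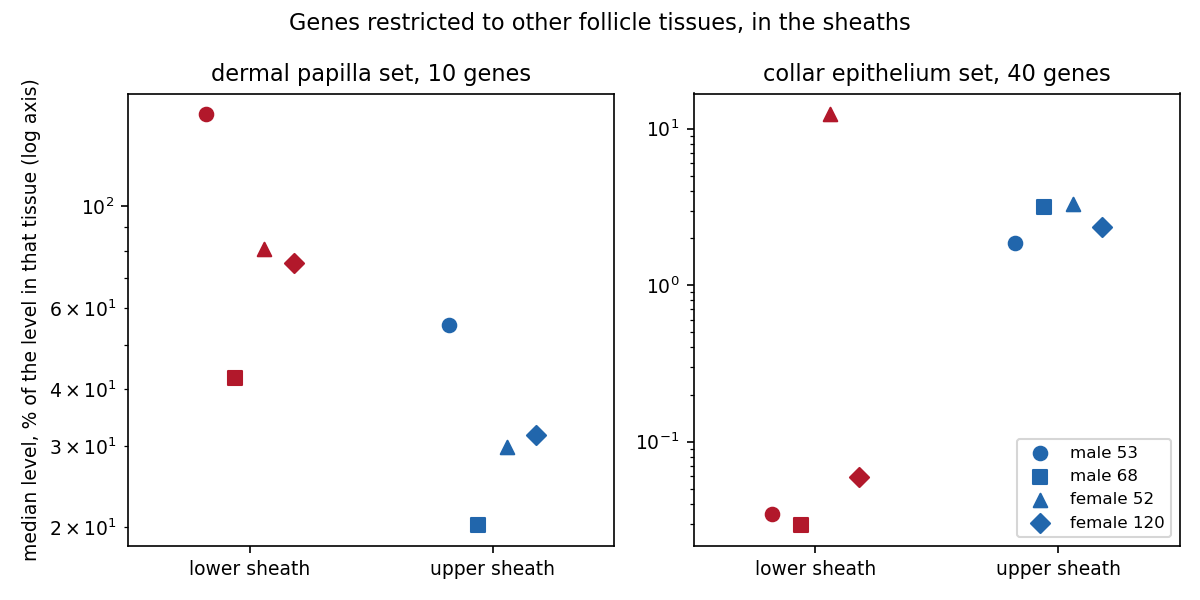
Median level of dermal papilla-restricted genes (left panel, 10 genes) and collar-restricted genes (right panel, 40 genes) in each sheath library, as a percent of the level in the tissue they are restricted to (log axis), with 1 marker shape per bird. In the right panel the lower sheath of female 52, at 12.4%, lies above every other sheath library.

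The series compares males and females, and the sheath difference was fitted in each sex. In males the test called 735 genes higher in the lower sheath, 5.51% of those tested, and 869 in the upper, 6.51%. In females it called 195 genes higher in the lower sheath, 1.46%, and 209 in the upper, 1.57%. These counts do not show that the sexes differ, since the difference itself, the interaction of tissue and sex, gave 0 called genes, or 0%, with edgeR. At an unadjusted p below 0.05 the interaction gave 571 genes, or 4.28%, where a uniform distribution of p gives 667, and DESeq2 called 55. With 2 birds of each sex, 2 residual degrees of freedom remained. Leaving out any bird leaves 1 bird of its sex. Such fits cannot tell sex from that bird, so no conclusion about sex is drawn from their calls.

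Most genes called in one sex had the same direction in the other. Of the 735 genes called higher in the lower sheath in males, 728, or 99.0%, were higher there in females, with a female median of 0.90 on the log2 scale, and of the 869 called higher in the upper sheath, 845, or 97.2%, were, with a female median of -1.07. In the other direction, 192 of the 195 genes called higher in the lower sheath in females were higher there in males. All 209 of the 209 called higher in the upper sheath in females were higher there in males. Over all genes tested, 49.8% to 50.1% had the given direction in the other sex.

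The smallest interaction p belonged to ENSGALG00000009155.4, a gene singled out for that value. It had 63.4 and 174 CPM in the lower sheaths of males 53 and 68, against 376 and 937 CPM in their upper sheaths. In females 52 and 120 it had 190 and 140 CPM in the lower sheaths, against 193 and 142 CPM in the upper sheaths. The fold change was -2.50 in males (adjusted p = 0.0086) and -0.020 in females (adjusted p = 0.94), and their difference, males minus females, was -2.48 ± 0.19 on the log2 scale (SE). Its adjusted p was 0.91 with edgeR and 4.77e-23 with DESeq2. With edgeR it was 0.922 under RLE scaling and 0.976 without the count filter, and the gene did not pass without the replicate block. With 1 bird left out the difference was -2.55 to -2.41, where 1 bird then stood for its sex.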

How the data were processed

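Gene counts were deposited by the authors as 1 raw count file per library, listing 17108 Ensembl identifiers. PolyA RNA was extracted with TRIzol and prepared with the Illumina TruSeq RNA kit, per the labels' protocols. STAR 2.4.1d, HTSeq 0.6.0 and edgeR with build galGal4 are named, per the submitters' processing notes. The sources used here give no annotation release and no strand setting, so overlapping or antisense genes and near-identical copies may share reads. None of the identifiers matched the RefSeq table at hand, so the gene lists and cell type markers prepared by symbol were not used here, and no sequence is shown.

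Libraries were grouped by the tissue label and blocked by bird. Counts were tested with edgeR 4.0.16 in R 4.3.3 (TMM scaling, filterByExpr with a minimum count of 10, quasi-likelihood F test, Benjamini-Hochberg adjustment). The filter left out 3768 genes, which held 0.020% of the counts. The fit of 13340 genes had 3 residual degrees of freedom. Standard errors were the absolute fold change over the square root of its F statistic, and 95% intervals of fold changes used them. They are unreliable where a sheath is near 0 counts. The code was tested on simulated data. CPM of the sheaths used TMM over 8 libraries. Levels in other tissues used TMM over 24, as did the sheath levels behind midpoints and restricted sets. That scale shifted the median gene by 0.065 on the log2 scale between sheaths. For the named genes and the on and off genes, sheath CPM stayed on the scale of 8 libraries beside other tissues on that of 24. Log2 CPM of single birds used a prior count of 2, and midpoints between tissues a pseudocount of 0.5 CPM. Intervals of count ratios are 95% and cover counting error only.

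The identifiers named are the 2 per direction with the largest fold change among called genes with at least 5 CPM in the higher sheath and no overlap between sheaths. The comparison, the lists and the limits were chosen with earlier results of these data known. The bird label pairs the sheaths. Across genes, deviations from the tissue means correlated between a bird's own sheaths at 0.487 in male 53, 0.509 in male 68, 0.331 in female 52 and 0.520 in female 120, and at most at 0.269 between different birds. No pair of libraries of the same sheath agreed within sampling noise, and other pairs were not examined for this. DESeq2 1.42.0, limma 3.58.1, other scalings and filters, fits without the block and fits without each bird were the alternatives.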

Additional observations from a re-analysis of the deposited data

Results flagged for a closer look

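In 6 of 37 groups of 4 libraries examined, the highest library lay far from the other 3, by the ratio of the gap to the range, which chance gives in about 1 of 20 groups. In the lower sheath of female 52 the collar epithelium set stood at 12.4% of its collar level, against 0.0293% to 0.0599% in the other lower sheaths. In the same library the papilla ectoderm gene stood at 2.31%, against 0.195% to 0.29% in the other lower sheaths. In the upper sheath of female 120 the papilla ectoderm gene stood at 11.1%, against 1.08% to 1.47% in the other upper sheaths. The remaining 3 rest on 1 to 3 counts, and where the other 3 libraries are at 0 any count passes the limit. ENSGALG00000016682.4 had 0.0359 CPM in the lower sheath of female 120 and 0 in the others, ENSGALG00000014848.4 had 0.0363 CPM in the dermal papilla of female 120 and 0 in the others, and ENSGALG00000027177.1 had 0.111 CPM in the upper sheath of female 120, against 0.0366 to 0.0470 CPM in the other upper sheaths.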

How the results depend on the processing

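The 3739 calls, 1916 higher in the lower sheath and 1823 in the upper, stayed within 1.5 times under RLE scaling, no count filter, DESeq2 and limma voom. With no replicate block there were 1846 (903 and 943), and with all 24 libraries and the replicate block 1989 (858 and 1131). With no replicate block and without the lower sheath of female 52 there were 2185 (915 and 1270). A test against a 2-fold change gave 418 (184 and 234). Leaving out each bird gave 1419 to 2821 calls (731 to 1195 lower, 688 to 1626 upper), and 444 to 645 lower and 431 to 966 upper genes at least 2-fold apart. Interaction calls were 55 with DESeq2 and 0 to 84 with a bird left out. Added after the data were seen, on and off limits of 10 and 0.25 CPM gave 10 and 3 genes. Leaving out the sheaths of female 52, also added then, gave 33 and 38 such genes and 24 collar-restricted calls in place of 11. It also gave 17.9% in place of 9.15% of upper sheath genes above the midpoint in the dermal papilla, whose level kept all 4 birds. With a 20-fold limit for restricted genes, the collar set held 21 genes and the dermal papilla set 2. Their mean upper sheath levels were 0.388% and 16.9%, against 2.68% and 34.2% for the sets of 40 and 10 genes. With a minimum of 50 CPM the collar set held 33 genes and was at 0.818%. Genes without overlap between sheaths numbered 1454 higher in the lower sheath and 1489 in the upper, 10.9% and 11.2% of those tested, and with CPM scaled over 24 libraries 1797 and 1201. The 4 named genes kept their direction in each of 12 alternatives, while the sheath with more genes called, without overlap or on and off changed between these settings. Where a bird or fit moved a count, the cause was not tested.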
